A study of Homo sapiens with 7 samples.

Results

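The genes of fatty acid and triglyceride synthesis were described in HK-2, a human cell line immortalised from the epithelium of the proximal tubule, after transfection with siRNA against GLUT2, the glucose transporter encoded by SLC2A2. The set holds 10 genes chosen by name: SREBF1, ACLY, ACSS2, ME1, ACACA, FASN, GPAM, AGPAT2, LPIN1 and DGAT1, out of 33694 genes with a row in the count table. The gene symbol in the table identified 9 of them, and ACACA, whose row carried no symbol, was found by its Ensembl ID, ENSG00000278540. All 10 passed the low-count filter, which left 12404 genes for testing. The 3 libraries labelled GLUT2-KD (replicates 2, 3 and 4) are called siGLUT2 here, and the 4 labelled WT (replicates 1 to 4), from cells given siRNA with a scrambled sequence, are called scrambled. Both groups got 50 nM siRNA with the same lipid reagent, were grown with 5% serum and 2 mM glutamine, and were lysed at 96 h. Neither group was left untransfected, and siRNA sequences were not analysed here. The labels call the samples biological replicates of the same cell line. P-values set the difference between groups against the spread between these replicates, and do not speak for other cells or donors.

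Fatty acid synthesis turns surplus carbon into lipid in the cytosol. Citrate leaves the mitochondrion and ATP citrate lyase cleaves it to acetyl-CoA, acetyl-CoA carboxylase makes malonyl-CoA, and fatty acid synthase builds palmitate from both with NADPH. Acyltransferases then add fatty acids to glycerol 3-phosphate, a phosphatase removes the phosphate, and a last acyltransferase makes triglyceride. SREBP-1, the product of SREBF1, is a membrane-bound transcription factor that activates many of these genes once it is cut free in the Golgi. Proximal tubule cells normally live on fatty acid oxidation, and lipid build-up in the tubule is a known feature of kidney disease.

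Libraries held 5881366 to 6914302 counts in siGLUT2 and 5654957 to 8455963 in scrambled cells. Values below are CPM, counts scaled to a common library size, with TMM scaling, a correction for library composition. The method counts transcript ends and CPM is not divided by length, so levels are compared between groups and not between genes. SLC2A2 was counted 0, 0 and 0 times in siGLUT2 libraries, against 13, 13, 7 and 17 times in scrambled libraries (adjusted p = 0.0085). Genes with at least 1 count numbered 13433 to 13891 in siGLUT2 and 14844 to 15036 in scrambled libraries, and mitochondrially encoded genes took 7.04% to 7.56% and 4.91% to 5.53% of counts (exact two-sided permutation p = 0.0286 for each, the smallest that 35 splits allow, and 0.0429 adjusted over 3 measures). The first principal component (44.1% of the variance) separated the groups, and on the second (20.5%) siGLUT2 replicates 2 and 4 lay at opposite ends.

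Of 14 proximal tubule markers only 5 passed the filter, and LRP2, SLC22A6 and SLC22A8, the receptor megalin and the organic anion transporters of the mature tubule, were at 0 in all 7 libraries. The kidney transcription factor PAX8 (185 CPM on average) and the cadherin CDH6 (272 CPM) were present, and the list summed to 549 to 588 CPM in siGLUT2 and 689 to 717 CPM in scrambled libraries. The 5 epithelial markers summed to 616 to 746 and 1035 to 1145 CPM, with 3 lower, KRT8, KRT18 and KRT19. The 8 fibroblast markers summed to 37.9 to 46.2 and 11.8 to 15.2 CPM, with COL3A1 at 0 and LUM carrying most of the rise. The 8 leukocyte markers summed to 25.9 to 28.5 and 13.8 to 18.8 CPM, nearly all of it CD68, with PTPRC, CD3E, CD3D and LYZ among those at 0. Of 7 endothelial and 7 adipocyte markers 0 passed the filter. The part of these shifts in the results below was not tested, and in bulk RNA fewer cells of a kind and less RNA per cell cannot be told apart.

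After siGLUT2, 2 of the 10 genes rose (ACLY and ACSS2), 2 fell (AGPAT2 and LPIN1) and 6 did not pass. Tests were by the quasi-likelihood method of edgeR. P-values were adjusted by Benjamini-Hochberg over the 12404 genes and called at 0.05, and each log2 fold change (siGLUT2 over scrambled) is given ± its SE. Across all tested genes 13.9% rose and 14.4% fell, 28.3% in all, and among the 7962 genes within the same range of mean CPM 35.8% passed. The share among the 10 genes, 40%, was therefore near the background. Their median log2 fold change was -0.22, beside -0.0029 over all tested genes. For 4 of the 10, the same 4 that passed, the groups' CPM ranges stood apart, where 35.1% of all tested genes had no overlap. By place in the pathway, of the 5 genes that make fatty acids 2 rose and 0 fell, with 4 estimates above 0 and 1 below. Of the 4 that assemble triglyceride 0 rose and 2 fell, with all 4 estimates below 0. Among 11 other glycerolipid acyltransferases tested, 2 rose and 1 fell, with a median of 0.25. The division into arms was not among the planned comparisons, and the difference between these arms was not tested.

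**Figure D1:**
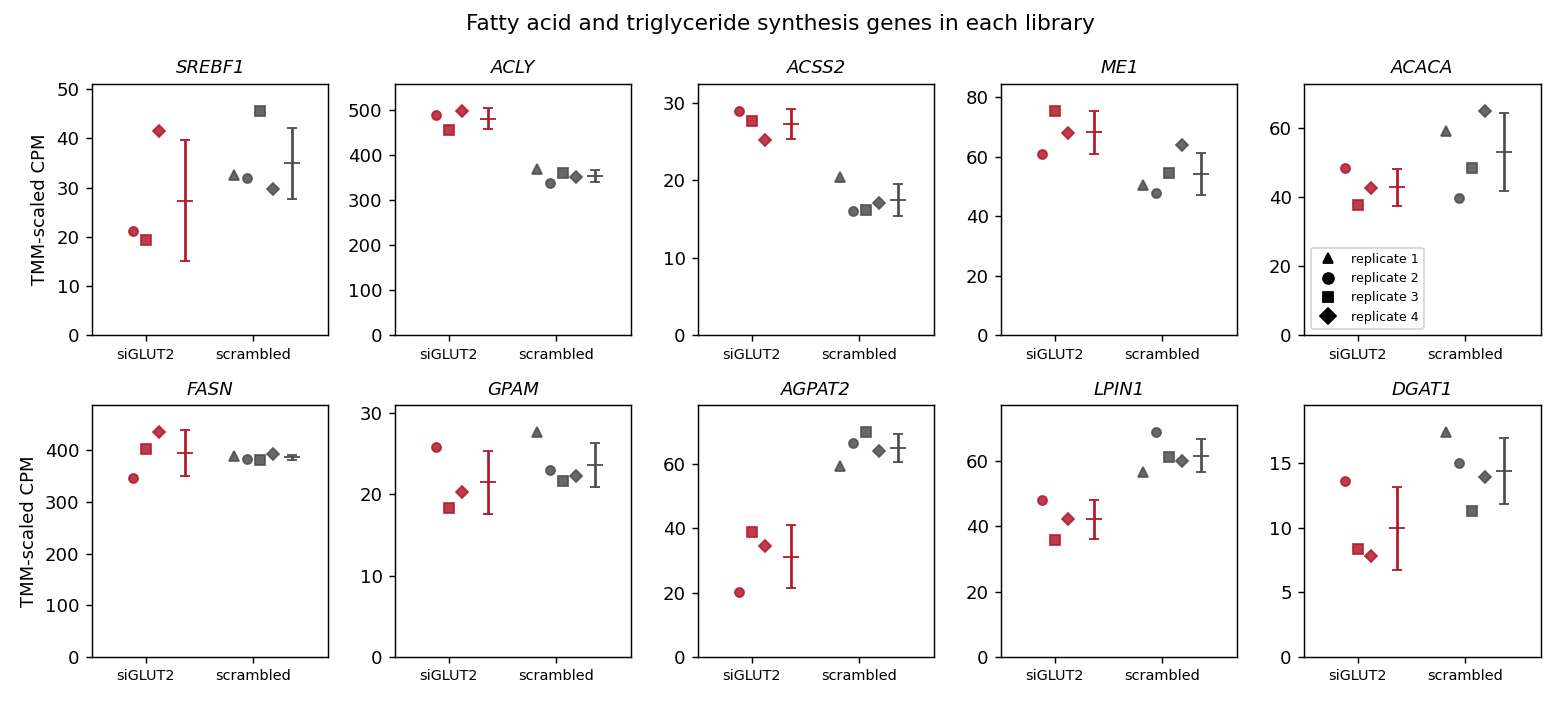
TMM-scaled CPM of each gene in every library, siGLUT2 (red) left of scrambled (grey). Marker shapes give the replicate number and bars the mean ± SD. The groups stand apart without overlap for ACLY, ACSS2, AGPAT2 and LPIN1.

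The promoters of ACLY and AGPAT2 are shown because these genes gave the rise and the fall with the smallest adjusted p in the set. Sequences are from RefSeq (GRCh38.p14) and run from 250 bases before to 50 bases after an annotated start, on the gene's strand. Capitals mark the CCAAT box (CCAAT, the letters bound by NF-Y) and the GC box (GGGCGG, bound by Sp1), on either strand. The ACLY window is chr17:41918973-41919272 and the AGPAT2 window chr9:136687408-136687707, both on the minus strand.
ACLY: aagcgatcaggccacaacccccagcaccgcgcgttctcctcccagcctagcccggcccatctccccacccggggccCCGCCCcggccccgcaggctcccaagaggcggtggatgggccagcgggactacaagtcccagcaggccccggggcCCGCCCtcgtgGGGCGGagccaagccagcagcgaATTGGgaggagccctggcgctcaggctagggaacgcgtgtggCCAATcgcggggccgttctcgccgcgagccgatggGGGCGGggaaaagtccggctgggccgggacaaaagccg
AGPAT2: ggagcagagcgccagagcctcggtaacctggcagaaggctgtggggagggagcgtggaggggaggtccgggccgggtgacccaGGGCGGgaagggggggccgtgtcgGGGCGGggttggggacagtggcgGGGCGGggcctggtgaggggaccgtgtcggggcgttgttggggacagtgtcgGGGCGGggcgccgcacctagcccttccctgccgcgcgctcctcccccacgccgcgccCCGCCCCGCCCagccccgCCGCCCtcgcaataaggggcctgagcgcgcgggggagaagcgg
The ACLY window held 2 CCAAT boxes and 4 GC boxes with no overlap among them, and the AGPAT2 window held 0 CCAAT boxes and 7 GC boxes, of which 1 pair overlapped. Windows were found for 8 of the 10 genes, 14 in all counting alternative starts, and not for FASN and DGAT1. Of the 14, 6 held a CCAAT box and 12 a GC box, against 34.6% and 44.9% of 35097 promoter windows of the same length. Windows of 1 gene are not independent: the 6 with a CCAAT box came from 4 genes (ACACA, ACLY, ACSS2 and GPAM), and the 2 ACLY windows overlap and hold the same boxes. The E-box CACGTG and the sterol regulatory element TCACNCCAC, searched on both strands, stood in 0 of the 14 and in 7.25% and 1.13% of all windows. These are matches of letters and not shown to be bound sites.

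SREBF1 encodes SREBP-1 (ENSG00000072310, chromosome 17, 17810399 to 17837002, minus strand, GRCh38). It had 21.1, 19.3 and 41.4 CPM in siGLUT2 replicates 2, 3 and 4, against 32.5, 31.9, 45.7 and 29.8 CPM in scrambled replicates 1 to 4. In siGLUT2 cells replicates 2 and 3 lay below every scrambled library and replicate 4 lay among them, so the groups overlapped. The log2 fold change was -0.36 ± 0.24 (95% interval -0.85 to 0.13, adjusted p = 0.278). Without siGLUT2 replicate 4 it was -0.80 (adjusted p = 0.00691), so that library decides whether the gene passes. The 3′ end of SREBF1 faces that of RAI1 on the other strand, with 556 exon bases shared in GENCODE release 29. RAI1 rose to 44.2 ± 3.69 CPM in siGLUT2 cells (SD, n = 3), against 29.3 ± 3.04 CPM in scrambled cells (SD, n = 4), with a log2 fold change of 0.59 ± 0.17 (adjusted p = 0.01003). With the strand setting unknown, reads of the shared stretch cannot be told apart.

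Of 20 tested genes that control SREBP-1 and lipogenic transcription, out of 21 listed, 6 rose and 2 fell, with a median of 0.26. The share, 40%, lay beside 28.3% of all tested genes and 35.8% of those within the CPM range of the 10 genes. Whether this list differs from all genes was not tested. INSIG1, which holds the SREBP escort protein in the endoplasmic reticulum and is itself an SREBP target, had 534, 535 and 533 CPM in siGLUT2 libraries, against 222, 197, 227 and 221 CPM in scrambled libraries (log2 fold change 1.30 ± 0.08, adjusted p = 1.27e-10). Every siGLUT2 library was above every scrambled one, and the siGLUT2 libraries lay within 2 CPM of each other. PPARG, a nuclear receptor that drives lipid storage in fat cells, had 40.9, 40.3 and 36.3 CPM, against 12.8, 17.5, 11.9 and 13.6 CPM (1.49 ± 0.20, adjusted p = 7.09e-06). TRIB1, a pseudokinase that guides COP1-dependent protein degradation, rose to 119 ± 7.48 CPM in siGLUT2 cells, against 58.9 ± 8.73 CPM in scrambled cells (1.02 ± 0.13). SREBF2, which encodes the sterol-directed relative of SREBP-1 and was picked after its values were seen, rose to 88.1 ± 8.02 CPM in siGLUT2 cells, against 59.7 ± 5.86 CPM in scrambled cells (0.56 ± 0.13, adjusted p = 0.00228). MLXIPL, which encodes the carbohydrate-responsive factor ChREBP, had 27 counts over all 7 libraries and was not tested. The 2 falls were in MBTPS2 (-0.73 ± 0.21, adjusted p = 0.0101) and SP1 (-0.66 ± 0.19, adjusted p = 0.012), both without overlap between groups. Both genes were named after their values were seen. The list held rises and falls in genes around SREBF1, while SREBF1 itself did not pass. Whether INSIG1 and SREBF1 differ in response was not tested.

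ACLY encodes ATP citrate lyase, which makes cytosolic acetyl-CoA from citrate (ENSG00000131473, chromosome 17, 41866908 to 41930542, minus strand). Its promoter is the first of the pair above. It had 489, 456 and 499 CPM in siGLUT2 libraries, against 368, 338, 361 and 350 CPM in scrambled libraries, from 1987 to 3193 counts a library. All siGLUT2 libraries were above all scrambled ones, with a log2 fold change of 0.44 ± 0.08, or 1.36-fold (adjusted p = 0.000196). The rise was modest and even: the SD was 4.66% of the mean in siGLUT2 and 3.69% in scrambled libraries. The gene lay at the 79.0 percentile of fold changes over all tested genes.

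ACSS2 encodes the acetyl-CoA synthetase that makes acetyl-CoA from acetate in the cytosol and nucleus (ENSG00000131069, chromosome 20, 34872146 to 34927962, plus strand). It had 28.99, 27.7 and 25.2 CPM in siGLUT2 libraries, against 20.5, 16.1, 16.2 and 17.1 CPM in scrambled libraries. The groups did not overlap, and the log2 fold change was 0.64 ± 0.20, or 1.56-fold (adjusted p = 0.0212). The call was close to the threshold: the adjusted p was 0.0613, 0.0539 and 0.052 when scrambled replicate 2, 3 or 4 was left out, and 0.0505 when siGLUT2 replicate 3 was, while the log2 fold change stayed between 0.60 and 0.73 in the 18 alternatives.

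ME1 encodes cytosolic malic enzyme, a source of NADPH (ENSG00000065833, chromosome 6, 83210389 to 83431071, minus strand). It had 61.1, 75.5 and 67.9 CPM in siGLUT2 libraries, against 50.6, 47.7, 54.6 and 64.0 CPM in scrambled libraries. Only scrambled replicate 4 reached into the siGLUT2 range. The log2 fold change was 0.33 ± 0.14 (95% interval 0.03 to 0.63), with an unadjusted p of 0.0303 and an adjusted p of 0.089 by edgeR. Without siGLUT2 replicate 2 the adjusted p was 0.0397.

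Of 13 tested genes that supply carbon and NADPH to these steps, out of 15 listed, 1 rose and 5 fell, with a median of -0.36. That is 46.2% in all, beside 28.3% of all tested genes, of which 13.9% rose and 14.4% fell. Whether the list differs from all genes was not tested. SLC25A1, the carrier that exports citrate from the mitochondrion to the enzyme ACLY, had 26.1, 42.2 and 27.1 CPM in siGLUT2 libraries, against 227, 177, 178 and 184 CPM in scrambled libraries. The highest siGLUT2 library was far below the lowest scrambled one, with a log2 fold change of -2.58 ± 0.16 (adjusted p = 6.53e-11). The carrier gene and the lyase gene, which act one after the other, passed the test in opposite directions. SLC25A10, the mitochondrial dicarboxylate carrier, had 20.6, 23.9 and 16.4 CPM, against 40.9, 42.8, 41.7 and 48.5 CPM (-1.09 ± 0.18), again without overlap. IDH1, the cytosolic NADP-dependent isocitrate dehydrogenase, fell to 58.0 ± 5.48 CPM in siGLUT2 cells, against 83.6 ± 6.99 CPM in scrambled cells (-0.52 ± 0.13, adjusted p = 0.00402). The rise was in ACSS1, the mitochondrial counterpart of ACSS2 (1.28 ± 0.44, adjusted p = 0.0341), which was named after its values were seen; the list held 0 rises under 5 of the 18 alternatives, among them the omission of siGLUT2 replicate 2 or 4 or scrambled replicate 3 or 4. SLC25A1 has annotated pseudogenes that can share reads.

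**Figure D2:**
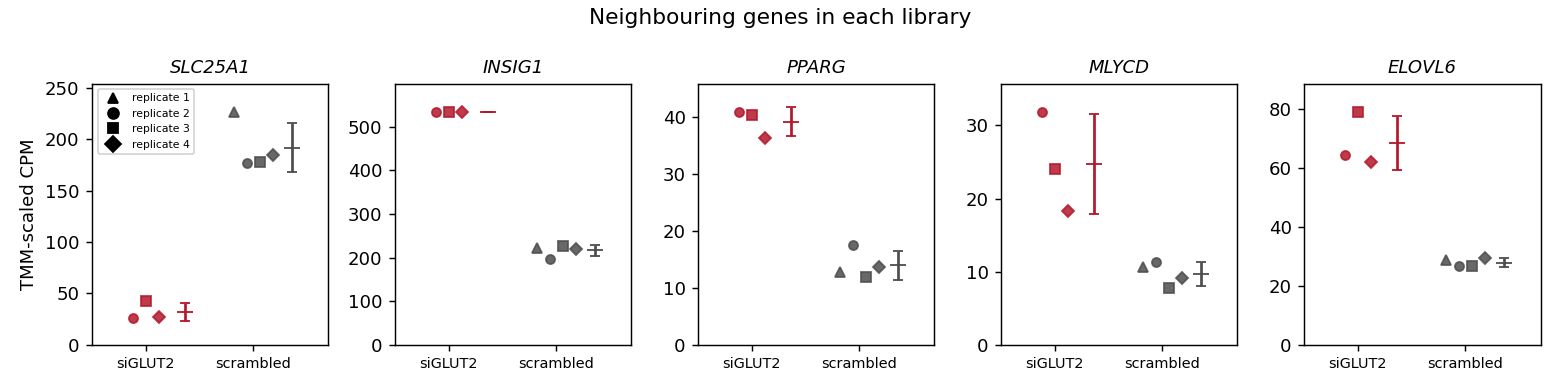
TMM-scaled CPM of 5 neighbouring genes in every library, siGLUT2 (red) left of scrambled (grey). Marker shapes give the replicate number and bars the mean ± SD. SLC25A1 lies between 26.1 and 42.2 CPM in siGLUT2 libraries and at 177 CPM or above in scrambled ones, and the other 4 lie higher in siGLUT2 libraries without overlap.

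ACACA encodes acetyl-CoA carboxylase 1, which makes malonyl-CoA in the committed step of fatty acid synthesis (chromosome 17, 37084988 to 37406818, minus strand). It had 48.4, 37.6 and 42.5 CPM in siGLUT2 libraries, against 59.1, 39.7, 48.4 and 65.1 CPM in scrambled libraries. The groups overlapped, and the scrambled libraries had an SD of 21.2% of their mean. The log2 fold change was -0.31 ± 0.17 (95% interval -0.67 to 0.05, adjusted p = 0.204). Fatty acid synthase, the enzyme that builds palmitate, is encoded by FASN (ENSG00000169710, chromosome 17, 82078333 to 82098332, minus strand). It had 347, 402 and 435 CPM in siGLUT2 libraries, against 389, 384, 381 and 392 CPM in scrambled libraries. The scrambled libraries had an SD of 1.32% of their mean, and the siGLUT2 libraries fell on either side of them. The log2 fold change was 0.03 ± 0.09 (adjusted p = 0.833), and its 95% interval, -0.15 to 0.21, excludes a rise as large as the estimate for ACLY. FASN is the most narrowly bounded of the 6 genes that did not pass.

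Among 8 tested partners of these enzymes, out of 10 listed, 2 rose and 0 fell, with a median of 0.05. This share, 25%, was near the 28.3% of all tested genes. At an unadjusted p below 0.05 by edgeR 1 gene was lower, MECR (-0.60 ± 0.25), and DESeq2 and limma-voom gave 0 falls. In 1 of the 18 alternatives, without siGLUT2 replicate 4, the list held 1 fall. MLYCD, the decarboxylase that breaks malonyl-CoA down, had 31.9, 24.1 and 18.3 CPM in siGLUT2 libraries, against 10.7, 11.3, 7.72 and 9.17 CPM in scrambled libraries (1.35 ± 0.26, adjusted p = 0.000379). MID1IP1, a partner that helps acetyl-CoA carboxylase polymerise, had 42.6, 32.3 and 31.3 CPM, against 19.5, 21.9, 25.8 and 25.8 CPM (0.61 ± 0.19, adjusted p = 0.0207). Neither gene overlapped between groups, and MID1IP1 no longer passed when siGLUT2 replicate 2 (adjusted p = 0.101) or scrambled replicate 1 (0.0701) or 2 (0.0603) was left out. Downstream of palmitate, 3 of 17 desaturase and elongase genes rose and 7 fell, 58.8% in all, beside 28.3% of all tested genes. This difference was not tested. ELOVL6, which elongates palmitate, had 64.6, 79.3 and 62.1 CPM, against 28.7, 26.7, 26.8 and 29.6 CPM (1.30 ± 0.15), while the trans-enoyl-CoA reductase gene TECR (-1.59 ± 0.22) and the polyunsaturated elongase ELOVL5 (-0.66 ± 0.13) fell. TECR also has annotated pseudogenes that can share reads.

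GPAM encodes the mitochondrial acyltransferase that adds the first fatty acid to glycerol 3-phosphate (ENSG00000119927, chromosome 10, 112149864 to 112215377, minus strand). It had 25.8, 18.3 and 20.3 CPM in siGLUT2 libraries, against 27.6, 23.0, 21.6 and 22.2 CPM in scrambled libraries. siGLUT2 replicate 2 lay within the scrambled range and the other siGLUT2 libraries just below it, with a log2 fold change of -0.14 ± 0.21 (95% interval -0.57 to 0.29, adjusted p = 0.667). The gene had 126 to 197 counts a library.

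AGPAT2 encodes the endoplasmic reticulum enzyme that adds the second fatty acid and yields phosphatidate, and its loss causes congenital lipodystrophy in people (ENSG00000169692, chromosome 9, 136673143 to 136687423, minus strand). It was counted 119, 269 and 221 times in siGLUT2 libraries and 423, 555, 552 and 363 times in scrambled libraries. That gave 20.3, 38.8 and 34.6 CPM in siGLUT2 libraries, against 59.3, 66.6, 69.8 and 64.0 CPM in scrambled libraries. The groups were far apart, and the siGLUT2 libraries varied more (SD 31% of the mean) than the scrambled ones (6.85%). The log2 fold change was -1.05 ± 0.18, or 2.07-fold lower in siGLUT2 cells (adjusted p = 0.000145), at the 6.26 percentile of all tested genes. Without siGLUT2 replicate 2, the lowest library, the log2 fold change was -0.83 (adjusted p = 0.000155).

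LPIN1 encodes lipin 1, a phosphatidate phosphatase that makes diacylglycerol and also acts as a transcriptional coactivator (ENSG00000134324, chromosome 2, 11677595 to 11827409, plus strand). It had 48.1, 35.9 and 42.4 CPM in siGLUT2 libraries, against 56.6, 68.8, 61.2 and 60.1 CPM in scrambled libraries. The groups did not overlap, and the log2 fold change was -0.55 ± 0.15, or 1.47-fold lower in siGLUT2 cells (adjusted p = 0.00787). The call held in each of the 18 alternatives, with an adjusted p of at most 0.0433.

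DGAT1 encodes the acyltransferase that makes triglyceride from diacylglycerol (ENSG00000185000, chromosome 8, 144314584 to 144326910, minus strand). It had 13.6, 8.36 and 7.82 CPM in siGLUT2 libraries, against 17.4, 14.99, 11.3 and 13.9 CPM in scrambled libraries. siGLUT2 replicates 3 and 4 lay below every scrambled library and replicate 2 lay among them. The log2 fold change was -0.54 ± 0.29 (95% interval -1.14 to 0.07, adjusted p = 0.184), nearly the same size as that of LPIN1 with a wider interval, from 50 to 125 counts a library. Without siGLUT2 replicate 2 it was -0.83 (adjusted p = 0.0481). The 3′ end of DGAT1 faces that of HSF1, with 139 shared exon bases, and HSF1, the heat shock transcription factor gene, fell to 44.6 ± 5.65 CPM in siGLUT2 cells, against 72.9 ± 8.93 CPM in scrambled cells (-0.71 ± 0.15, adjusted p = 0.000955). Reads of this shared stretch cannot be told apart either.

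**Figure D3:**
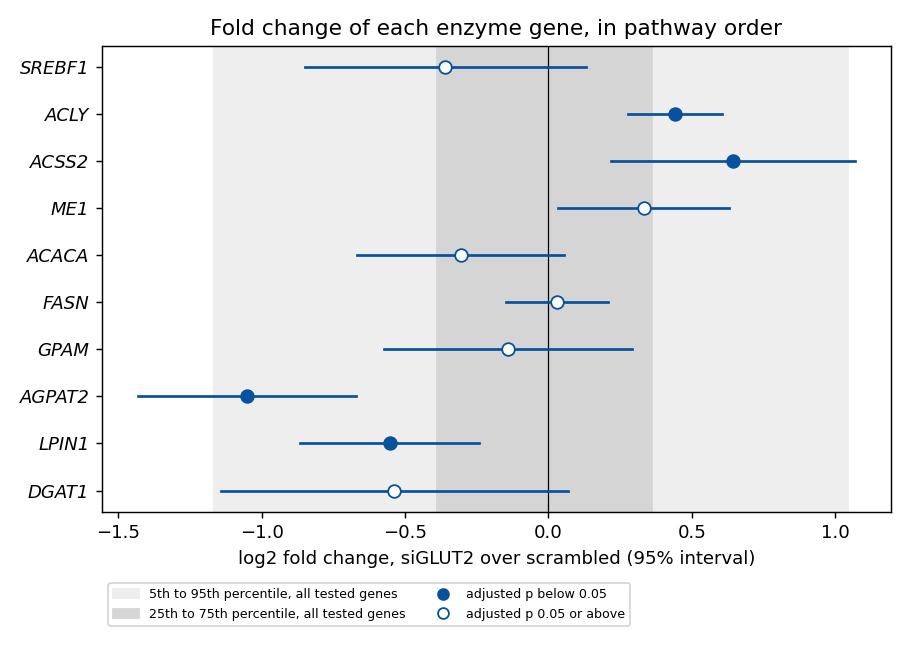
Log2 fold change of each gene in pathway order with its 95% interval (x axis), filled where the adjusted p is below 0.05. The grey bands span the 25th to 75th and the 5th to 95th percentile of all 12404 tested genes, and AGPAT2 at -1.05 is the only 1 of the 10 near the edge of the wider band.

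Among the other glycerolipid acyltransferases, of 11 tested, out of 15 listed, 2 rose and 1 fell, with a median of 0.25. This share, 27.3%, was near the 28.3% of all tested genes. Of the related genes of the AGPAT series, AGPAT1 (0.04 ± 0.15), AGPAT3 (0.22 ± 0.12), AGPAT4 (-0.05 ± 0.20) and AGPAT5 (0.30 ± 0.13) did not pass, and they were listed here after their values were seen. The endoplasmic reticulum glycerol 3-phosphate acyltransferase GPAT4 had 77.6, 86.9 and 93.7 CPM in siGLUT2 libraries, against 62.6, 76.6, 60.5 and 61.2 CPM in scrambled libraries (0.40 ± 0.13, adjusted p = 0.0252). The cholesterol acyltransferase SOAT1 had 109, 88.0 and 109 CPM, against 76.2, 68.1, 74.1 and 76.7 CPM (0.47 ± 0.12, adjusted p = 0.00544). GPAT2, a mitochondrial acyltransferase with annotated pseudogenes that can share reads, fell to 53.8 ± 4.08 CPM in siGLUT2 cells, against 70.3 ± 2.28 CPM in scrambled cells (-0.38 ± 0.13, adjusted p = 0.0316). The groups did not overlap for these 3 genes. GPAT4 no longer passed when siGLUT2 replicate 3 or 4 or scrambled replicate 1, 3 or 4 was left out (adjusted p 0.0612 to 0.0799). GPAT2 no longer passed when siGLUT2 replicate 2 or any scrambled library was left out (adjusted p 0.0548 to 0.0821), nor by limma-voom when each group had its own quality weight (0.0635). DGAT2, which catalyses the same step as DGAT1 and was named after its values were seen, had 21.6 ± 7.18 CPM in siGLUT2 cells and 14.3 ± 2.20 CPM in scrambled cells (0.59 ± 0.25, adjusted p = 0.0902).

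Of 9 phosphatidate phosphatases and their regulators beside LPIN1, 2 rose and 0 fell, with a median of 0.55. This share, 22.2%, was below the 28.3% of all tested genes. At an unadjusted p below 0.05 by edgeR 0 genes were lower, and DESeq2 and limma-voom also gave 0 falls. PLPP4, a lipid phosphate phosphatase, had 11.4, 15.4 and 7.82 CPM in siGLUT2 libraries, against 0.841, 1.08, 1.14 and 0 CPM in scrambled libraries (adjusted p = 2.08e-05). CNEP1R1, a regulatory subunit of the phosphatase that activates lipins, had 3.24, 11.96 and 10.2 CPM, against 1.26, 1.44, 1.90 and 1.76 CPM (2.40 ± 0.52, adjusted p = 0.00133). Both stood apart from the scrambled libraries at low levels, and siGLUT2 replicate 2 was the nearest to them for CNEP1R1. Its catalytic partner CTDNEP1 was at 172 ± 29.9 CPM in siGLUT2 and 185 ± 6.35 CPM in scrambled cells (adjusted p = 0.542), and the sister genes LPIN2 (-0.32 ± 0.20) and LPIN3 (0.55 ± 0.22) did not pass; these 3 were named after their values were seen.

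**Figure D4:**
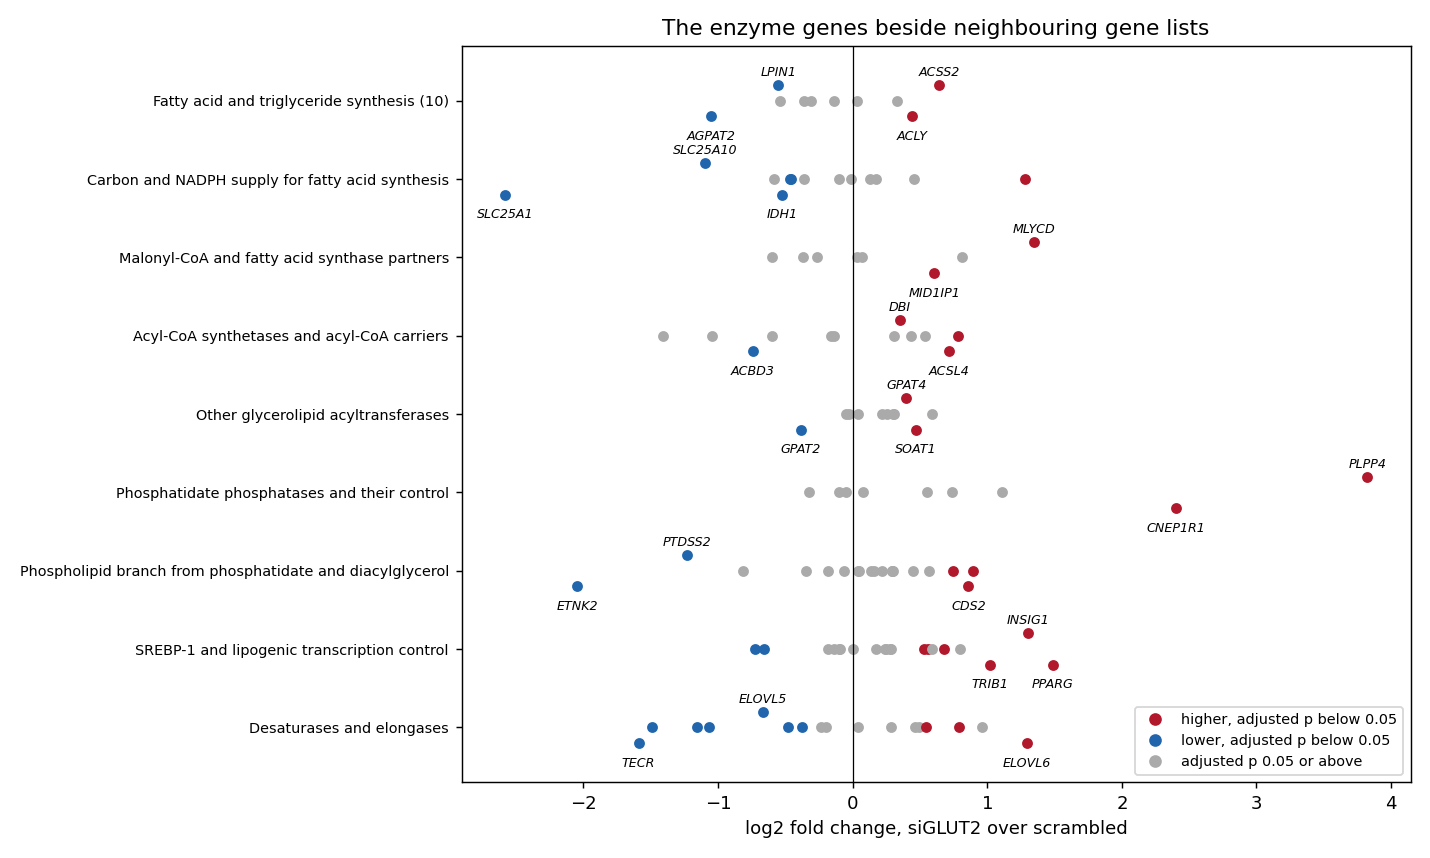
Log2 fold change of every tested gene in the set of 10 and in 8 neighbouring lists (x axis; 1 point a gene), coloured by direction where the adjusted p is below 0.05. Among the 10 genes ACLY and ACSS2 lie to the right and AGPAT2 and LPIN1 to the left, and the widest shifts near them are SLC25A1 at -2.58 and PLPP4 at 3.82.

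The words GACCTTA and ACCTTAA, which an earlier scan of these same fold changes had picked, stood in the longest annotated 3′ UTR of 3 of the 10 genes (ACACA, GPAM and LPIN1) and of 16.4% of 11660 tested genes. Over all tested genes the median log2 fold change was -0.09 with either word and 0.02 without. Because the words were picked from these fold changes, this difference is no test of them. The length of the 3′ UTR was not taken into account in these comparisons. Neither word stood in AGPAT2, ACLY, ACSS2, SLC25A1, INSIG1, PPARG or PLPP4. Of the genes named from the neighbouring lists that passed, MLYCD, ELOVL6 and CDS2 rose and held at least 1 of them. ACBD3, ELOVL5 and SP1, which fell, also did. The part of these words in the LPIN1 value was not tested.

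**Figure D5:**
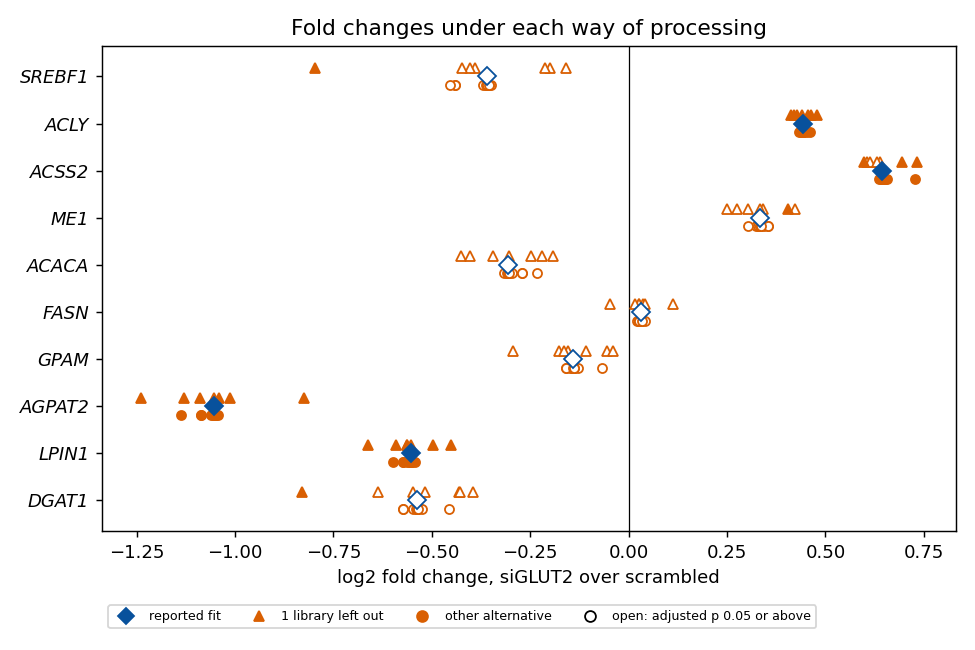
Log2 fold change of each gene (x axis) in the reported fit (diamonds), with 1 library left out (triangles) and under the other alternatives (circles); open symbols have an adjusted p of 0.05 or above. ACLY, AGPAT2 and LPIN1 are filled throughout, and SREBF1 is filled at -0.80 alone, without siGLUT2 replicate 4.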

How the data were processed

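Digital 3′ mRNA sequencing was done on 7 HK-2 libraries, from 125 ng RNA with single-end reads of 100 cycles, per the labels' protocols. The authors deposited raw counts per gene for each library, not normalized. The submitters' processing notes name STAR, HTSeq, edgeR and hg38, with neither version nor role. Annotation release, strandedness and the handling of molecular identifiers: not given in the sources used here. The table held 33694 genes, of which 16136 had 0 counts throughout and 615 had no symbol.

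From these counts, edgeR 4.0.16 in R 4.3.3 was run with TMM scaling, filterByExpr (minimum count 10, minimum total 15) and robust quasi-likelihood fits on both groups without covariates. P-values were adjusted by Benjamini-Hochberg over 12404 genes. The SE is the fold change over the square root of F, and intervals are 95%. Means are given ± SD of CPM. DESeq2 1.42.0 and limma-voom (limma 3.58.1) were alternatives, with other scalings and filters, a replicate block and each library left out. The fit was tested on simulated data. Of genes changed 1.5-fold 25 of 67 were recovered, of those changed 2-fold 43 of 67, and of those changed 4-fold 57 of 66. Of all 136 calls in the simulation 11 were false. Changes of the smaller sizes were therefore often missed in the simulation. It changed far fewer of its 12404 genes than the 3509 called in the data, so its rates of recovery need not hold here. A gene that did not pass is not shown to be unchanged.

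The 10 genes and the neighbouring lists were chosen with earlier results of these data known. From each list up to 3 genes with the smallest adjusted p below 0.05 were named. Of the 109 tested genes of the neighbouring lists together, 22 rose and 18 fell, 36.7% in all, beside 28.3% of all tested genes. No set test was run on the lists. Gene positions and 3′ UTRs are from GENCODE release 29 (GRCh38), where 33132 IDs matched, and promoters from RefSeq.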

Additional observations from a re-analysis of the deposited data

Results flagged for a closer look

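In 3 of 33 genes checked, 1 scrambled library stood far from the other 3, by the gap to its nearest neighbour divided by the whole range, set against Dixon's 95% critical value for 4 samples. Chance flags about 1 in 20 groups. SREBF1 had 45.7 CPM in scrambled replicate 3, against 29.8 to 32.5 CPM in the others, a ratio of 0.8293, only just above the critical value. SLC25A1 had 227 CPM in scrambled replicate 1, against 177 to 184 CPM in the others, a ratio of 0.846. GPAT4 had 76.6 CPM in scrambled replicate 2, against 60.5 to 62.6 CPM in the others, a ratio of 0.865. The siGLUT2 group, with 3 libraries, was too small for this check.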

How the results depend on the processing

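The directions of ACLY, AGPAT2 and LPIN1 and their side of the threshold held under 18 alternatives, with log2 fold changes of 0.41 to 0.48, -1.24 to -0.83 and -0.66 to -0.45. At an adjusted p below 0.01, 1097 genes rose and 1167 fell over all genes, and 1 of the 10 rose and 2 fell. With each library left out, 1 to 3 of the 10 rose and 2 to 3 fell. FASN ranged from -0.048 without siGLUT2 replicate 4 (adjusted p = 0.732), where it changed sign, to 0.11 without siGLUT2 replicate 2; the cause was not tested. Over all alternatives 1097 to 1827 genes rose and 1167 to 1963 fell. SLC2A2 was removed by the low-count filter in 4 of the 18 alternatives. DGAT1 had 50 to 125 counts a library and an SD of 32.4% of the mean in siGLUT2 and 17.6% in scrambled libraries; the part of depth in its interval was not tested.

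No pairing by replicate number was detected: deviations from the group means correlated at 0.0086, 0.019 and -0.0044 between same-numbered libraries. With so few libraries, low correlations do not show that the samples were prepared unpaired. With the replicate block 1242 genes rose and 1407 fell, 2616 of them among the 3509 called without it. Of the 10 genes 2 rose and 2 fell with the block, while SLC2A2 (adjusted p = 0.0577), MID1IP1 (0.115), GPAT4 (0.102) and GPAT2 (0.0838) no longer passed.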

Other observations

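Of 19 tested genes that draw phosphatidate and diacylglycerol into phospholipids, out of 20 listed, 3 rose and 2 fell, with a median log2 fold change of 0.16. This share, 26.3%, was near the 28.3% of all tested genes. ETNK2, an ethanolamine kinase, had 4.43, 5.48 and 7.19 CPM in siGLUT2 libraries, against 25.5, 26.4, 21.2 and 21.3 CPM in scrambled libraries (-2.05 ± 0.27, adjusted p = 5.5e-06). CDS2, which makes CDP-diacylglycerol from phosphatidate, had 50.5, 35.4 and 62.1 CPM, against 29.9, 24.1, 26.6 and 28.2 CPM (0.86 ± 0.19). PTDSS2, a phosphatidylserine synthase, had 8.53, 15.1 and 5.16 CPM, against 25.2, 22.7, 26.3 and 16.1 CPM (-1.23 ± 0.31). None of these 3 genes overlapped between groups.

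Of 12 tested acyl-CoA synthetases and carriers, out of 16 listed, 3 rose and 1 fell, with a median of 0.08. This share, 33.3%, lay beside 28.3% of all tested genes. ACSL4, which activates arachidonate, had 285, 227 and 237 CPM in siGLUT2 libraries, against 141, 135, 167 and 164 CPM in scrambled libraries (0.72 ± 0.11). DBI, the acyl-CoA binding protein, had 1039, 850 and 848 CPM, against 716, 699, 734 and 712 CPM (0.35 ± 0.08), and has an annotated pseudogene that can share reads. ACBD3, a Golgi protein with an acyl-CoA binding domain, had 97.6, 78.4 and 70.7 CPM, against 130, 151, 136 and 131 CPM (-0.74 ± 0.12).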
